A study of Mus musculus with 20 samples.

Results

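Histones are the proteins that DNA is wound around, and the genes described here are the core and variant histone genes of the mouse testis: 69 rows of a table of 22066 gene symbols. They were chosen as the rows whose symbol begins with H1f, H2a, H2b, H3 or H4 and that held at least 40 counts over 20 libraries. Of 104 symbols with such a beginning, 35 fell below that minimum, and 10 of these had no count at all. Just inside the minimum lay H2ac22 with 44 counts, H2bc8 with 46 and H4c16 with 53, and just outside it lay H4c17 and H4c18 with 35 counts each, H1f8 with 34 and H2bc12 with 33. By symbol, 28 members are germ cell variants, 8 are replacement histones and 33 are replication-dependent histones.

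The libraries were made from poly(A)-selected RNA of whole testis of males of the NSG strain, which lacks lymphocytes and tolerates human grafts, and fall into 5 groups of 4. NC is the normal control. ALL mice carried a patient-derived xenograft of B-ALL, a human leukaemia of early B cells, and received no vincristine. VCR mice received vincristine, a drug that binds tubulin, and their labels name no injected cells. Low-VCR and High-VCR mice carried the xenograft and received vincristine, and were separated by low or high leukaemic infiltration of the blood. Per the labels' protocols, the mice were 6 weeks old, engrafted mice received 400000 B-ALL cells into the tail vein, vincristine sulfate was given into the peritoneum at 0.5 mg/kg once a week for 3 weeks from day 69, and control groups received saline. All groups share the NSG background, and the labels name no other allele. The labels do not state that every library is a different mouse; the spread behind each p-value is that of the libraries and may be technical. The labels call the material mixed testicular cells; markers of spermatogonia, spermatocytes, spermatids, Sertoli cells and Leydig cells were present in NC, while the 6 B lineage genes summed to at most 4.75 CPM in any library of any group.

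Replication-dependent histones are made when DNA is copied. Their messenger RNAs usually end in a stem-loop in place of a poly(A) tail, and an oligo-dT library captures only the part of them that is polyadenylated. Replacement histones (H3.3, H2A.Z, H2A.X, H1.0 and H1.10) are made throughout the cell cycle, mostly from polyadenylated transcripts; H2ax is known to give both forms. Male germ cells add a set of their own: H1t (H1f6), TH2A (H2ac1) and TH2B (H2bc1) in spermatocytes, and in spermatids H1t2 (H1f7), the H1-like H1f9, short H2A variants such as H2A.L and H2A.B, and the H2B variant H2bl1. Most histones are then removed as transition proteins and protamines pack the sperm genome.

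The stem-loop letters are shown because they are the feature that separates the classes in how their RNA ends. The consensus of the histone stem-loop, 16 letters whose fixed ones are a GG at the start, a CTT in the middle and a CC at the end, with a T and an A between the CTT and that CC, was searched on the transcript strand of the GENCODE M21 models (GRCm38) in 62 members that matched a model. It was found in 19 of 29 replication-dependent members (65.5%), in 1 of 8 replacement members (12.5%), in 1 of 25 germ cell variants (4%) and in 349 of 21901 protein-coding genes (1.59%). Several models of replication-dependent and germ cell members hold no untranslated region, so the absence of these letters there says only that they are not in the model. Capitals mark the 16 letters of the stem-loop, with 5 bases on each side:
H2bc22: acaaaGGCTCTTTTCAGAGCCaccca
H2ac18: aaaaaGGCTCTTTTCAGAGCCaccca
H3c1: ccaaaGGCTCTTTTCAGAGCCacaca
H4c1: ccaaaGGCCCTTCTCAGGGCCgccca
H4c9: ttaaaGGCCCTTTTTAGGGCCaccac
H1f2: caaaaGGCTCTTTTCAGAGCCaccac
H1f6: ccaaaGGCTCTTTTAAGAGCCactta
H2ax: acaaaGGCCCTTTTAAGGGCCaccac
The loop was followed by 38 more bases in the H2bc22 model and by 35 in H2ac18. It was followed by 840 bases in H1f2, 822 in H2ax, 330 in H4c9 and 1162 in H3c14, so these models run on well past the loop. The single germ cell variant with the letters was H1f6, the variant of spermatocytes, whose model ran on for 185 bases.

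Promoters (250 bases before to 50 after the gene start) were taken from RefSeq, build GRCm38.p6, where 59 members had an entry. The letters CCAAT, searched on both strands, occurred in 24 of 26 replication-dependent promoters (92.3%), 5 of 7 replacement promoters (71.4%), 8 of 26 germ cell variant promoters (30.8%) and 37.4% of 32851 promoters. TATAAA, on both strands, occurred in 57.7%, 14.3% and 19.2% of these classes and in 13.6% of all promoters. ATTTGCAT, the octamer known from H2B genes, occurred in 11.5% of replication-dependent, 14.3% of replacement and 7.69% of germ cell variant promoters and in 1.74% of all. TGACGTCA, the cyclic AMP response element, occurred in 11.5% of replication-dependent promoters, in no replacement or germ cell variant promoter and in 1.79% of all. These shares do not count independent promoters. The H2al1 genes are near copies of each other, and none of their promoters held CCAAT. The 2 germ cell variant promoters with ATTTGCAT were those of H2ac1 and H2bc1, whose windows overlap. The motifs do not overlap each other in letters, and a match is a description, not a binding site. The following promoters are shown because H2bc22 and H1f2, both replication-dependent, moved in opposite directions under vincristine, and because H1f7 and H2al2a are the abundant spermatid variants that fell. Each runs 5′ to 3′ on the strand of its gene, with matches to the 4 motifs in capitals on either strand.
H2bc22, chr13:21787238-21787537, plus strand: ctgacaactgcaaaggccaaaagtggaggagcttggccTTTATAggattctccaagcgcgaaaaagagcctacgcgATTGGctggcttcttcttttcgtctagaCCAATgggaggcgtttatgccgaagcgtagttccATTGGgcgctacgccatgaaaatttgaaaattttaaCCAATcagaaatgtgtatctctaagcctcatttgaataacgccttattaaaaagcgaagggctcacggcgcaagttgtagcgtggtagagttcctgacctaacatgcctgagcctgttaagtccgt
H1f2, chr13:23738557-23738856, plus strand: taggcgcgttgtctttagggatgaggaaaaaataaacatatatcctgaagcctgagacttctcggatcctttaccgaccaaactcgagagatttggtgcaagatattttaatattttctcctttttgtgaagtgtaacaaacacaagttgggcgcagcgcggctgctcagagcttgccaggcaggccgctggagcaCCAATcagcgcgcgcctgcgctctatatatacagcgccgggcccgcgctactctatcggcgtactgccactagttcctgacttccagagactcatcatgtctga
H1f7, chr15:98257258-98257557, minus strand: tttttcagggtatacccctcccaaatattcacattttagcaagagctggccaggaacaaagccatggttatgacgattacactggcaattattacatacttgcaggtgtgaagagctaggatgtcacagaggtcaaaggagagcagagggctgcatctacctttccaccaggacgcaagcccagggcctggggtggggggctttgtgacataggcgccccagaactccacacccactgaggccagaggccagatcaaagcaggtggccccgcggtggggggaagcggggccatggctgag
H2al2a, chr2:17996909-17997208, minus strand: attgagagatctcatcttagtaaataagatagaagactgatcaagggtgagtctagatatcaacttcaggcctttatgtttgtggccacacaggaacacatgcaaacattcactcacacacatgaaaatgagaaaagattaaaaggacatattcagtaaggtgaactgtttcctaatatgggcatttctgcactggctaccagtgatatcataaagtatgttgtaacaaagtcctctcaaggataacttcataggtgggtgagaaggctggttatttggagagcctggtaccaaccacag
The H2bc22 promoter held 4 CCAAT matches and 1 TATAAA match, and the H1f2 promoter held 1 CCAAT match. The H2bc22 window overlaps that of H2ac22, a gene on the minus strand, and its TATAAA match reads on the minus strand. Its matches are therefore not particular to H2bc22. The H1f7 and H2al2a promoters held none of the 4 motifs.

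The libraries held 9425158 to 16357287 counts, and 3 counts, the limit that a count of 0 allows, correspond to 0.167 to 0.365 CPM. CPM, the usual depth-normalised unit of counts, were computed from library sizes scaled by edgeR's trimmed mean of M values (TMM). Intervals and limits of this kind cover counting error only. The first principal component held 69.7% of the variance, and VCR 1 stood farthest from the controls on it. Mitochondrial genes took 1.87 to 2.60% of counts in NC and 5.66 to 11.9% in VCR. The members, with rows of identical counts taken once, took 0.259 to 0.287% in NC and 0.0828 to 0.168% in VCR. VCR 1 had 15 members at 0, the most of any library. NC and VCR have their own range of library numbers in the labels, so any difference between NC and VCR libraries and those of engrafted mice cannot be told apart from that range.

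After the filter on low counts, 61 members were tested among 16534 genes with edgeR's quasi-likelihood test, and "passed" means an adjusted p under 0.05 (Benjamini-Hochberg, over all genes tested). All 28 germ cell variants, all 8 replacement histones and 25 of 33 replication-dependent members were tested, and the 8 that were too low were H1f4, H2bc8, H2bc9, H2ac22, H3c4, H3c6, H3c11 and H4c16. Among the members, 13 fall into 4 sets with the same counts in every library, so reads of these near-identical copies could not be told apart. The sets are H2ac18 with H2ac19, H2bc23 with H2bc24, H2al2b with H2al2c, and H2al1a with H2al1c, H2al1d, H2al1f, H2al1g, H2al1h and H2al1i. Each set is described once under its first name, which leaves 52 tested rows with distinct counts: 21 germ cell variants, 8 replacement and 23 replication-dependent histones. Counts of members out of 61, also in the alternative fits, take every row, so the rows of a set pass or fail together there. H3c13 and H3c15 also shared counts in part, being equal and above 0 in 9 libraries while H3c13 was at 0 and H3c15 was not in 9 others, and their values are uncertain. The other H2al1 genes and the clustered core histones are near copies as well, and how reads that fit several copies were counted is not given in the sources used here.

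In the control testis the spermatid variants led the members that have a transcript length. Per kilobase of the longest model, NC held 713 ± 46.5 CPM per kb of H1f7 (SD, n = 4), 410 ± 40.1 of H2al2a, 310 ± 43.7 of H2bl1 and 205 ± 11.6 of H2ap, a small H2A-like protein. The replacement histone H2az1 reached 225 ± 14.8 CPM per kb, H3f3b 125 ± 7.60 and H3f3a 61.8 ± 1.22. Among replication-dependent genes, H2ac18 held 145 ± 21.5 CPM per kb, H2bc22 119 ± 11.1 and H4c1 37.7 ± 5.06. The spermatocyte variants gave low values, with 7.27 ± 1.94 CPM per kb of H2ac1 and 7.27 ± 2.59 of H2bc1. The H1f6 model holds the stem-loop letters, and the H2ac1 and H2bc1 models are only 390 and 384 bases long. These libraries capture polyadenylated RNA only, and the part of capture in these low values was not tested. The SDs of H2bl1 and H2al2a do not overlap, while those of H2ap and H2az1 do.

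Engraftment alone was addressed by ALL against NC. None of the 61 members passed in the fit of all groups, as no gene of 16534 passed edgeR's test (0% called). At an unadjusted p under 0.05 there were 2 members and 748 genes, and DESeq2 called 19 genes over the whole table. With only the ALL and NC libraries in the edgeR fit, 28 of 15004 genes passed (0.187%), and no member did. The median of the 21 germ cell variants was 0.11 on the log2 scale, beside -0.02 over all genes. H1f7 was at 990.5, 914, 856 and 971 CPM in NC 1 to 4 and at 1056, 988, 968 and 918 in ALL, and the groups overlapped. The linker histone H1f10 gave 14.5 ± 6.08 CPM in NC and 33.3 ± 2.41 in ALL (SD, n = 4). The groups did not overlap, at 9.31 to 22.4 CPM in NC and 30.5 to 36.0 CPM in ALL. Its log2 difference of 1.19 ± 0.39 (SE) had an adjusted p of 0.864 in edgeR, and H1f10 passed in none of the alternative fits.

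**Figure D1:**
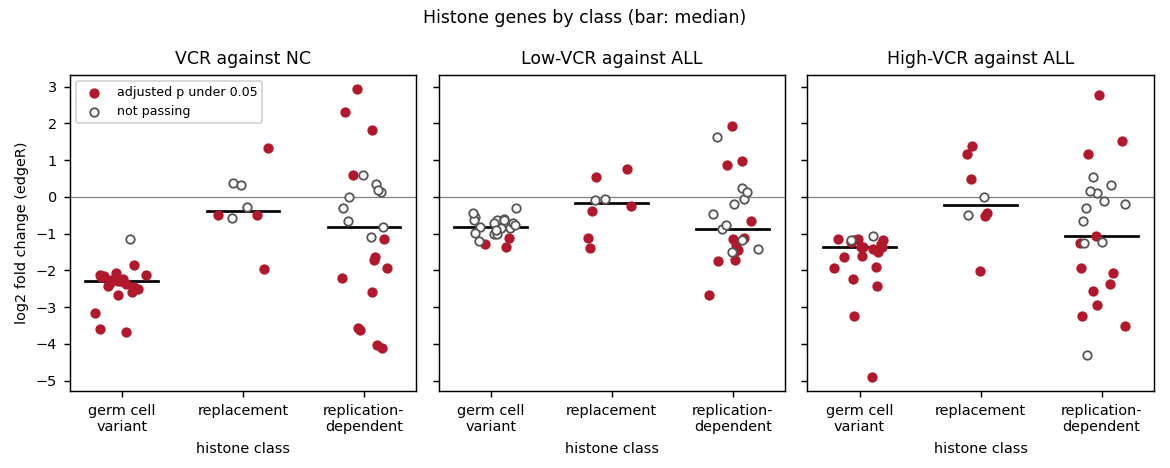
Log2 fold change (edgeR, TMM scaling) of the 52 tested rows with distinct counts, by histone class (x axis), in VCR against NC, Low-VCR against ALL and High-VCR against ALL; filled points passed an adjusted p of 0.05 and bars are class medians. Germ cell variants all lie below 0, with medians of -2.30, -0.83 and -1.37, while replication-dependent genes spread on both sides; when scaled to Sertoli genes the rises that passed turn negative, except those of H1f2, which no longer passes in Low-VCR against ALL, and that of H4c9 in VCR against NC.

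Vincristine without a named graft was addressed by VCR against NC. Germ cell variants fell almost as a class: 20 of 21 distinct rows passed as lower and none as higher, with a median log2 change of -2.30. Replication-dependent histones split, with 10 of 23 lower and 4 higher and a median of -0.82, and replacement histones moved least, with 3 of 8 lower, 1 higher and a median of -0.38. Over all 61 tested members 41 fell and 6 rose, or 33 and 5 of the 52 distinct rows. Over all genes 77.7% were called in either direction, 35.6% lower and 42.1% higher, and the median was 0.10. In the drug-treated libraries the share of spermatid RNA was also lower: all 10 round spermatid markers and all 10 condensing spermatid markers fell, with medians of -3.45 and -2.27, and 17 of 18 Sertoli markers rose. In whole tissue, fewer cells of a type and less RNA per cell cannot be told apart, and the part of these markers in the histone results was not tested.

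H1f7, the linker histone of elongating spermatids, was at 10.7, 132, 340 and 216 CPM in VCR 1 to 4, against 856 to 990.5 CPM in NC. All treated libraries lay below all controls, and VCR 1 was the lowest. Its log2 change was -2.42 ± 0.57 (SE) with an edgeR adjusted p of 0.000934, and -2.02 without VCR 1. H1f9, the other spermatid linker histone, was at 6.86, 70.6, 155 and 105.4 CPM in VCR against 463 to 494 CPM in NC. Its change was -2.50 ± 0.52 (SE; edgeR adjusted p = 0.00033). The order of the VCR libraries was the same for both genes, with VCR 3 highest.

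H2al2a, the H2A.L variant that takes part in the replacement of histones by protamines, was at 2.67, 30.3, 83.7 and 55.4 CPM in VCR and at 196 to 244 CPM in NC. The groups did not overlap, and the change was -2.37 ± 0.58 (SE; edgeR adjusted p = 0.0013). The H2B variant H2bl1 fell by 2.57 on the log2 scale, H2ap by 2.34 and H2al3 by 2.13. The 7 distinct H2al1 rows and H2al2b lay between -2.45 and -1.85, and all of them passed. H2bw2, an H2B variant at only 1.05 to 1.29 CPM in NC, fell by 2.26 and was at 0 in VCR 1.

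The H2A.B genes and the H3 variant H3f4 had the largest falls among the germ cell variants. H2ab3 was at 9.50, 5.70, 4.65 and 4.95 CPM in NC and at 0.0762, 0.456, 0.918 and 0.532 in VCR, with a log2 change of -3.59 ± 0.58 (SE). H2ab1 was at 1.55 to 2.91 CPM in NC and at 0 to 0.304 CPM in VCR, where every library lay below or close to the level of 3 counts, with a fitted change of -3.66. H3f4 was at 4.85 to 7.00 CPM in NC and at 0, 0.380, 1.18 and 1.06 in VCR, with a change of -3.17. The groups did not overlap for any of these genes.

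The spermatocyte variants gave low values throughout, in libraries that capture polyadenylated RNA only. H1f6 (H1t) was at 4.75, 2.69, 1.84 and 2.85 CPM in NC and at 0.152, 0.532, 1.25 and 0.761 in VCR, a log2 change of -2.13 ± 0.55 (SE; edgeR adjusted p = 0.00186). H2ac1 (TH2A) fell by 2.67, from 2.83 ± 0.758 CPM in NC to 0.430 ± 0.299 in VCR (SD, n = 4). Its partner H2bc1 (TH2B), which pairs with TH2A in nucleosomes, was the single germ cell variant that did not pass, at -1.16 ± 0.66 (SE; edgeR adjusted p = 0.116). H2bc1 was at 1.46, 3.88, 2.91 and 2.93 CPM in NC and at 0, 0.835, 2.23 and 1.90 in VCR, and the groups overlapped. Meiotic markers fell in 8 of 10 cases with a median of -1.19; their part in these values was not tested.

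**Figure D2:**
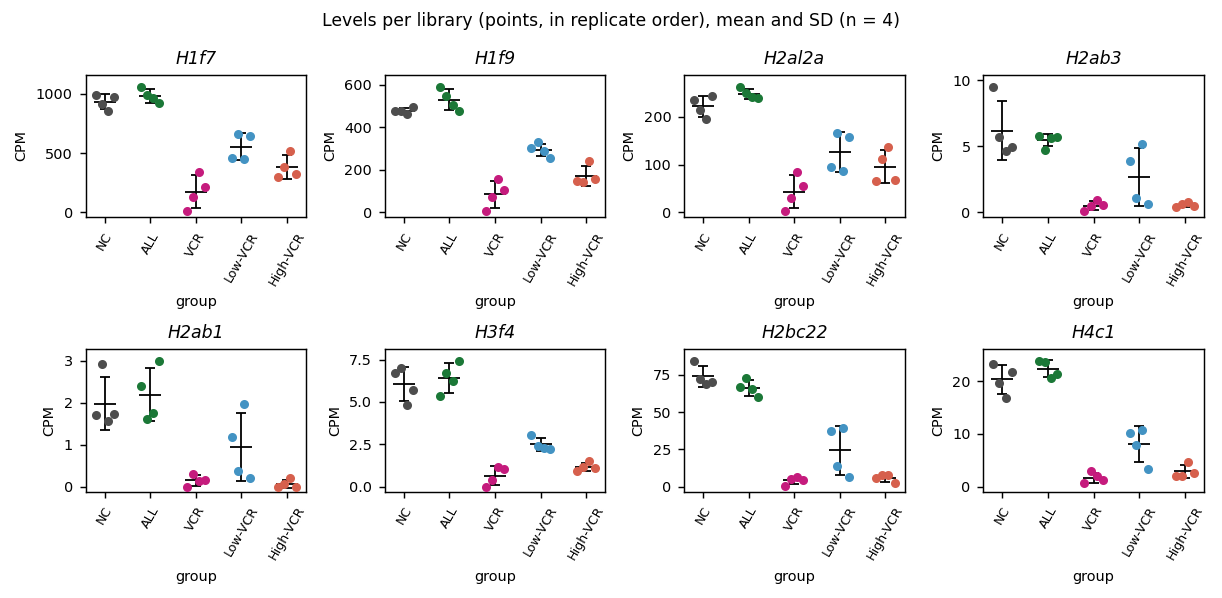
CPM (linear axes) of 8 histone genes in each library of the 5 groups on the x axis; points are libraries in replicate order, and the bar and whiskers are the mean and SD (n = 4). NC and ALL lie together and VCR is low in every panel, while in Low-VCR libraries 1 and 3 are high for H2ab3, H2ab1 and H2bc22 and libraries 2 and 4 are high for H1f7 and H2al2a.

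Replication-dependent genes fell and rose side by side. H2bc22 was at 84.1, 72.3, 69.0 and 70.2 CPM in NC and at 0.686, 5.39, 6.56 and 4.34 in VCR, a log2 change of -4.11 ± 0.58 (SE; edgeR adjusted p = 6.37e-06). That was the largest fall of any tested member, and the groups lay far apart. H4c1, a gene for the core histone H4, was at 16.9 to 23.1 CPM in NC and 0.762 to 2.89 in VCR, with a change of -3.56 ± 0.39 (SE; edgeR adjusted p = 3.66e-07). H2ac18 fell from 85.2 ± 12.6 to 22.2 ± 5.31 CPM (SD, n = 4), a change of -1.94. H3c1 and H1f5 fell by 3.62 and 2.21; like H4c9 below, they were picked out after their values had been seen.

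H1f2, a somatic linker histone, moved the other way and was at 5.60, 6.67, 5.24 and 3.98 CPM in NC and at 53.6, 46.9, 27.7 and 35.5 in VCR. Every treated library lay above every control, VCR 1 highest, and the log2 change was 2.93 ± 0.25 (SE; edgeR adjusted p = 4.25e-08). H4c9 was at 0.487 to 1.26 CPM in NC and 3.21 to 6.17 in VCR, a change of 2.31, which was 0.33 and no longer passed when libraries were scaled to 18 Sertoli genes (edgeR adjusted p = 0.237). H1f2 kept its call under that scaling, at 0.95. H2bc23 rose by 1.81 and H2ac25 by 0.60 with TMM scaling, but under the Sertoli scaling these values were -0.17 and -1.31. H2bc21 was at 3.59 to 5.73 CPM in NC and 2.67 to 7.28 in VCR and gave -0.01 (edgeR adjusted p = 0.989), or 0.37 with library size alone. H3c14 fell by 1.14 (edgeR adjusted p = 0.0224), but its adjusted p was 0.126 without NC 1, 0.0557 without NC 2, 0.0651 without VCR 2 and 0.0558 without VCR 3.

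Replacement histones changed less. H3f3a and H3f3b both code for the replacement H3, H3.3. H3f3a was at 174, 179, 171 and 178 CPM in NC and at 123, 119, 125 and 134 in VCR, so the groups did not overlap, and the change was -0.49 ± 0.09 (SE; edgeR adjusted p = 0.00012). H3f3b gave -0.48 ± 0.13 (SE; edgeR adjusted p = 0.00241). With library size alone as the scaling these values were -0.09 and -0.10 and did not pass. H2az1, the main H2A.Z gene, was at 223 to 254 CPM in NC and 149 to 263 in VCR and gave -0.28 (edgeR adjusted p = 0.245), or 0.10 with library size alone. H1f0, the linker histone of cells that have stopped dividing, rose from 11.9 to 16.6 CPM in NC to 26.8 to 43.5 CPM in VCR, a change of 1.32 ± 0.20 (SE; edgeR adjusted p = 1.08e-05), which became -0.63 when scaled to Sertoli genes.

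H2ax, the variant phosphorylated at DNA breaks and on the sex chromosomes of spermatocytes, was at 33.01, 39.8, 25.0 and 14.03 CPM in NC and at 2.90, 2.20, 6.95 and 16.7 in VCR. VCR 4 lay within the controls and the other three did not. The log2 change was -1.95 ± 0.49 (SE; edgeR adjusted p = 0.00169). H2aj, at 1.73 to 5.97 CPM in NC and 2.73 to 9.36 in VCR with VCR 4 highest, did not pass (0.39, or -0.09 without VCR 4; edgeR adjusted p = 0.438). H2az2 (0.31) and H1f10 (-0.58) did not pass either, but each passed without VCR 3, at 0.39 and -1.05, and H2az2 passed with library size alone, at 0.71 (edgeR adjusted p = 0.00116). The values of H2aj, H2az2 and H1f10 lay between -2.32 and -1.48 against Sertoli genes.

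**Figure D3:**
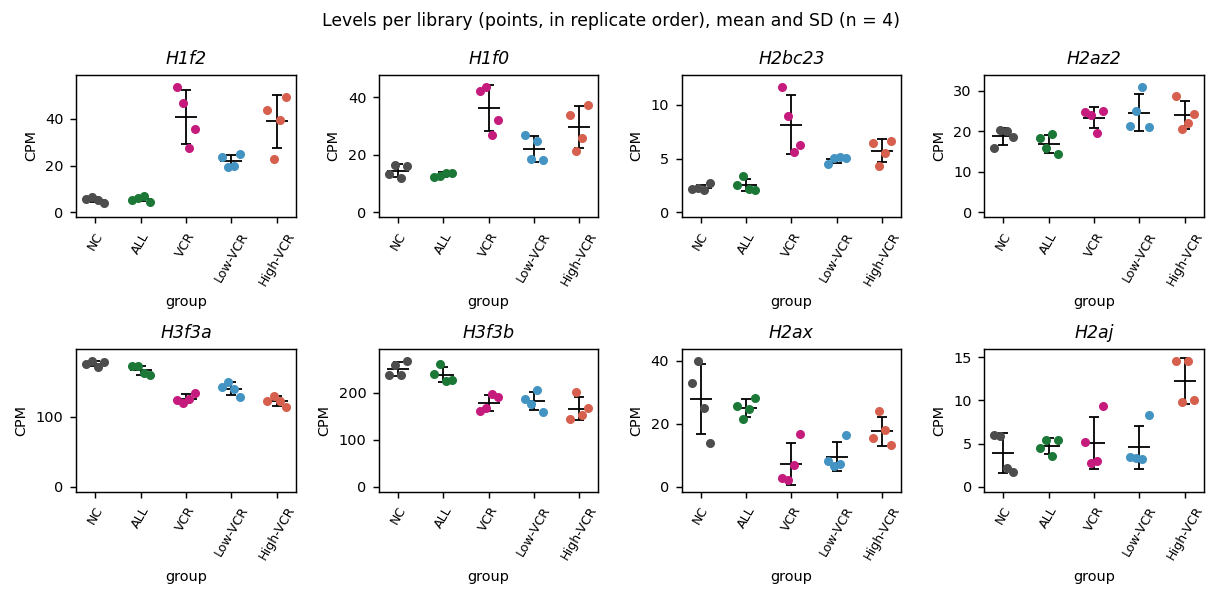
CPM (linear axes) of 8 histone genes in each library of the 5 groups on the x axis; points are libraries in replicate order, and the bar and whiskers are the mean and SD (n = 4). H1f2 and, with TMM scaling, H1f0 and H2bc23 are higher in the 3 vincristine groups, the latter pair turning negative against Sertoli genes; H3f3a and H3f3b are lower with TMM; H2ax and H2aj are each higher in VCR 4, Low-VCR 4 and the High-VCR libraries than in the other VCR and Low-VCR libraries, and H2ax there lies below most NC and ALL libraries.

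Vincristine in engrafted mice with low infiltration was addressed by Low-VCR against ALL. Of 61 tested members 18 fell and 6 rose (16 and 5 of the 52 distinct rows), while 51.6% of all genes were called, 15.2% lower and 36.4% higher. Of the 21 distinct germ cell variants 3 passed as lower (median -0.83), of 8 replacement histones 4 fell and 2 rose (median -0.17), and of 23 replication-dependent histones 9 fell and 3 rose (median -0.89); the median of all genes was 0.08. With only the Low-VCR and ALL libraries in the fit, 37 members were lower in place of 18, and in the fit of all groups the count was 10 without ALL 1, 9 without ALL 2, 11 without Low-VCR 2 or Low-VCR 3 and 9 without Low-VCR 4. The share of all genes called in either direction was 68.3% with only these groups, and 43.9 to 46.8% without the single libraries named. Round spermatid markers passed as lower in 3 of 10 cases (median -1.22), condensing spermatid markers in none (median -0.82), and 17 of 18 Sertoli markers rose.

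Among the abundant spermatid variants, H1f7, H1f9 and H2al2a were lower in every Low-VCR library than in ALL without passing in the fit of all groups. The groups overlapped for H2al3, at 40.1 to 65.1 CPM in Low-VCR and 52.3 to 76.5 CPM in ALL. H1f7 was at 460, 664, 448 and 646 CPM in Low-VCR 1 to 4, with a log2 change of -0.83 ± 0.54 (SE; edgeR adjusted p = 0.193), and passed with only the groups compared (edgeR adjusted p = 0.000624). H1f9 was at 301, 328, 286 and 257 CPM and gave -0.85, and H2al2a was at 95.2, 166, 86.7 and 157 CPM and gave -0.97; both passed with only the groups compared. In Low-VCR, libraries 2 and 4 held more H1f7 and H2al2a than libraries 1 and 3. H3f4 fell by 1.361 (edgeR adjusted p = 0.01), with 2.49 ± 0.368 CPM against 6.41 ± 0.862 in ALL (SD, n = 4). H2ac1 gave -1.28 and H2al2b -1.12, both called at edgeR adjusted p values of 0.0426 and 0.0439, and each call was lost with any single library of either group left out.

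Among replication-dependent genes, H4c1 fell from 20.6 to 23.7 CPM in ALL to 10.2, 7.97, 10.8 and 3.34 in Low-VCR, a log2 change of -1.47 ± 0.34 (SE; edgeR adjusted p = 0.00181). H2bc22 fell from 60.1 to 72.7 CPM to 37.1, 14.1, 39.4 and 6.53, a change of -1.45 ± 0.51 (SE; edgeR adjusted p = 0.0252), with adjusted p values of 0.0722 without Low-VCR 2 and 0.0613 without Low-VCR 4. Libraries 1 and 3 were the high ones here, the reverse of H1f7. H2ac18 fell by 1.12 (edgeR adjusted p = 5.6e-05). H1f2 rose to 23.5, 19.3, 19.7 and 24.9 CPM from 4.63 to 6.84 CPM in ALL, a change of 1.93 ± 0.24 (SE; edgeR adjusted p = 5.6e-06), which was 0.29 and no longer passed when scaled to Sertoli genes (edgeR adjusted p = 0.153).

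Of the replacement histones, H2ax fell to 8.07, 6.44, 7.28 and 16.3 CPM from 21.5 to 28.3 CPM in ALL, a log2 change of -1.39 (edgeR adjusted p = 0.0239), and the groups did not overlap. Its adjusted p was 0.0505 without ALL 4, 0.0557 without Low-VCR 1, 0.0665 without Low-VCR 2 and 0.0616 without Low-VCR 3. H1f10 fell by 1.11 (edgeR adjusted p = 0.0241; 0.0661 without Low-VCR 4). H3f3b fell by 0.39 (adjusted p of 0.0556 without ALL 2 and 0.062 without Low-VCR 4), and gave -0.13 and did not pass with library size alone (edgeR adjusted p = 0.381). H3f3a gave -0.25, or 0.01 with library size alone as the scaling, and its adjusted p was 0.073 without ALL 1, 0.0722 without ALL 2, 0.0573 without Low-VCR 3 and 0.0927 without Low-VCR 4. H1f0 and H2az2 rose by 0.75 and 0.54 with TMM scaling, and both turned when scaled to Sertoli genes, to -0.89 and -1.13. H3c14 fell by 1.15 (edgeR adjusted p = 0.0326), a call lost without ALL 1, ALL 2, ALL 4, Low-VCR 2 or Low-VCR 3.

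Vincristine with high infiltration was addressed by High-VCR against ALL. Of 61 tested members 39 fell and 7 rose (31 and 6 of the 52 distinct rows), while 72.9% of all genes were called, 30.5% lower and 42.4% higher. Of the 21 distinct germ cell variants 19 fell (median -1.37), of 8 replacement histones 3 fell and 3 rose (median -0.23), and of 23 replication-dependent histones 9 fell and 3 rose (median -1.06); the median of all genes was 0.16. Round spermatid markers fell in 9 of 10 cases (median -2.999), condensing spermatid markers in 3 of 10 (median -1.19), and their part was not tested.

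H1f7 was at 299, 386, 521 and 327 CPM in High-VCR 1 to 4, all below ALL, with a log2 change of -1.358 ± 0.55 (SE; edgeR adjusted p = 0.0337). The call was lost without ALL 1, ALL 2, ALL 3, High-VCR 1, High-VCR 2 or High-VCR 4, with adjusted p values of 0.0522 to 0.0819. H2al2a was at 66.1, 111, 137 and 68.0 CPM and gave -1.37 (edgeR adjusted p = 0.035), and this call was lost without any one ALL library, High-VCR 1 or High-VCR 4. The calls of H2ap, H2al1k, H2al1m, H2al1n and H2bc1 were lost in the same way without any one ALL library, High-VCR 1 or High-VCR 4, and all but that of H2bc1 also without High-VCR 2. That of H2al1b was lost without ALL 2, High-VCR 2 or High-VCR 4, and that of H2bl1 without High-VCR 1 or High-VCR 4. H1f9 kept its call, at 146, 141, 243 and 157 CPM with a change of -1.62 ± 0.50 (SE; edgeR adjusted p = 0.00819).

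The H2A.B genes were almost absent. H2ab3 was at 0.407, 0.649, 0.789 and 0.447 CPM in High-VCR and at 4.76 to 5.77 CPM in ALL, a log2 change of -3.24 ± 0.57 (SE; edgeR adjusted p = 7.45e-05). H2ab1 was at 0, 0.0649, 0.197 and 0 CPM against 1.62 to 2.98 CPM in ALL, and its fitted change of -4.90 rests on values at or below the level of 3 counts. H3f4 fell by 2.43, H2ac1 by 2.24 and H1f6 by 1.93. H2bc1 gave -1.49 (edgeR adjusted p = 0.0482).

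H2bc22 was at 5.49, 7.72, 7.69 and 2.29 CPM in High-VCR, a log2 change of -3.52 ± 0.56 (SE; edgeR adjusted p = 2.72e-05), and H4c1 at 2.10, 2.08, 4.73 and 2.62 CPM, a change of -2.95. H1f2 rose to 43.9, 23.03, 39.6 and 49.5 CPM, a change of 2.77 ± 0.25 (SE; edgeR adjusted p = 8.03e-08). H1f10 fell by 2.03, from 33.3 ± 2.41 to 8.16 ± 2.14 CPM (SD, n = 4). H2aj was at 14.5, 9.86, 14.5 and 9.99 CPM against 3.52 to 5.47 CPM in ALL and rose by 1.37 (edgeR adjusted p = 0.0103), or gave -0.54 when scaled to Sertoli genes. H1f0, H2bc23 and H4c9 rose by 1.18, 1.18 and 1.52 with TMM scaling, and gave -0.78, -0.75 and -0.41 against Sertoli genes. H2ax, at 15.5, 23.9, 17.9 and 13.1 CPM, gave -0.51 and did not pass (edgeR adjusted p = 0.336), though it passed with only the groups compared at -0.75. H3c14 gave -0.11, or 0.18 with library size alone.

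Infiltration under vincristine was addressed by High-VCR against Low-VCR. Of 61 tested members 1 rose and 4 fell, beside 7.81% of all genes called, 3.13% higher and 4.69% lower. H1f2 rose by 0.84 ± 0.23 (SE; edgeR adjusted p = 0.036), or 0.51 without passing when scaled to Sertoli genes (edgeR adjusted p = 0.115). H2ab1 fell by 3.70 ± 0.82 (SE; edgeR adjusted p = 0.0215), H2ab3 by 2.23 ± 0.56 (0.0284), H2bc22 by 2.07 ± 0.53 (0.0296) and H4c1 by 1.48 ± 0.36 (0.0247). In Low-VCR, H2ab3 was at 3.86, 1.07, 5.18 and 0.653 CPM and H2ab1 at 1.17, 0.383, 1.97 and 0.218 CPM. Libraries 1 and 3 carried these levels, and libraries 2 and 4 were near the High-VCR range. Each of the 5 calls was lost without Low-VCR 1, Low-VCR 3, High-VCR 1 or High-VCR 4, and that of H1f2 also without Low-VCR 2 or High-VCR 3. The counts were 7 lower and 3 higher without Low-VCR 4, beside 11.4% of all genes called, and 3 higher without High-VCR 2, beside 19.4%. With only these 2 groups in the fit no member and no gene passed edgeR's test. Within the lower of the 2 ranges of library numbers that hold engrafted mice, the difference of mean log2(CPM + 1) of H2bc22 was -1.67, and within the higher range it was -1.71. For H4c1 the values were -1.70 and -0.65, and for H2ab3 -1.06 and -0.99.

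In the Low-VCR libraries, round spermatid markers had a mean log2(CPM + 1) of 7.17, 6.30, 7.18 and 5.73, in the same order of high and low as H2bc22, H2ab1 and H2ab3. Condensing spermatid markers had means of 10.34, 10.90, 10.09 and 10.79, in the same order as H1f7, H2al2a and H2bl1. Not all spermatid variants kept that order: library 4 was the lowest for H1f9, at 301, 328, 286 and 257 CPM. It was also the lowest for H2al1b, at 15.5, 15.9, 14.8 and 12.5 CPM. The plot of a histone against a marker list shows the relations of H2al2a and H2bc22, whose points share library and depth, and their cause was not tested.

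**Figure D4:**
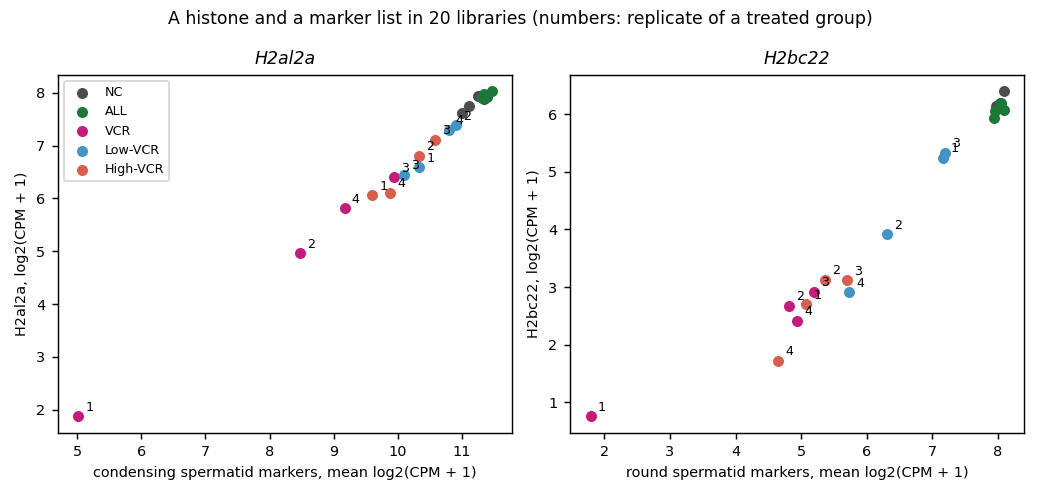
Level of H2al2a against the mean of 10 condensing spermatid markers, and of H2bc22 against the mean of 10 round spermatid markers, in 20 libraries (all values log2(CPM + 1); numbers are replicates of treated groups). Low-VCR 2 and 4 lie above 1 and 3 on the left, and Low-VCR 1 and 3 lie above 2 and 4 on the right; VCR 1 is lowest in both.

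Graft and drug together against drug alone were compared as Low-VCR against VCR. Of 61 tested members 29 were higher and 6 lower (22 and 5 of the 52 distinct rows), beside 30.2% of all genes called, 16.7% higher and 13.6% lower. Of the 21 distinct germ cell variants 17 were higher (median 1.70). With only these 2 groups in the fit no member passed and 1 gene of 15860 did; the cause was not tested. Without VCR 2 the counts were 16 higher and 3 lower, beside 14.8% of all genes called. Without Low-VCR 1 there were 3 lower, beside 17.8%. H1f9 was at 6.86 to 155 CPM in VCR and 257 to 328 in Low-VCR, a log2 difference of 1.80 (edgeR adjusted p = 0.0165), and the groups did not overlap. For High-VCR against VCR no member passed and 1 gene did (0.00605% called). An unadjusted p under 0.05 in edgeR's test was found for 27 of 61 members, or 19 of 52 distinct rows, beside 1358 of 16534 genes. DESeq2 called 34 genes over the table. NC and VCR do not share the library number range of the engrafted groups, so graft and range cannot be told apart here.

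The interaction asked whether the vincristine change differed between mice with a low-infiltration graft and mice without a named graft. In edgeR's test 3 members passed, all with a smaller fall in the engrafted mice, beside 5.07% of all genes called, 3.81% in that direction: H2bc22 (2.67 ± 0.73 SE; adjusted p = 0.0463), H4c1 (2.09 ± 0.50; 0.0356) and H1f5 (1.55 ± 0.38; 0.0375). The count was 0 without any one NC or ALL library, Low-VCR 1 or Low-VCR 3, 1 without VCR 2, 5 without Low-VCR 4, 18 without VCR 1 and 22 without VCR 3, and 0 with Sertoli scaling. The share of all genes called, in either direction, moved as well. It was 0.0418 to 1.07% for the single libraries without which the count was 0. It was 0.478% without VCR 2, 8.46% without Low-VCR 4, 7.72% without VCR 1, 14% without VCR 3 and 0.302% with Sertoli scaling. For H1f7 the interaction was 1.59 ± 0.76 (SE; adjusted p = 0.197). For the high-infiltration graft no member passed and 1 gene did (0.00605% called).

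Ratios within a library, as differences of log2(CPM + 1) between 2 genes, were tested for 5 pairs of histones in 4 comparisons by exact two-sided permutation, 20 tests in all, where 4 against 4 libraries cannot give a p under 0.0286. None of the 20 passed after adjustment. In VCR against NC the ratio of H1f7 to H1f6, spermatid over spermatocyte linker histone, differed by -1.90 (exact p = 0.0286, adjusted p = 0.19) and that of H1f9 to H1f6 by -1.85 (exact p = 0.0286, adjusted p = 0.19). H1f6 lay near or below the added 1 CPM in VCR, and with 0.5 CPM added these differences were -1.57 (exact test, adjusted p = 0.381) and -1.52 (exact test, adjusted p = 0.286), so no separate change of the linker histones is read from them. The ratio of H2az2 to H2az1 gave 0.62 in Low-VCR against ALL (exact p = 0.0286, adjusted p = 0.19). H3f3a to H3f3b, both H3.3 genes, was at -0.50 ± 0.11 and -0.50 ± 0.06 in VCR and NC (SD, n = 4).

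Genes that supply, carry or remove histones were read from a list of 40, of which 39 were in the table and tested. In VCR against NC 19 fell and 9 rose (median -0.48), beside 77.7% of all genes called. Among carriers of new histones, Chaf1a, a subunit of the replication-coupled assembly factor, fell by 1.80, Nasp, an H3-H4 chaperone, by 1.76 and Asf1b by 1.26, while Hira, the H3.3 chaperone, rose by 1.20 and Atrx by 2.14 with TMM scaling; against Sertoli genes these were -0.73 and 0.16, the latter not passing. Chaf1b, another subunit of the factor that holds Chaf1a, did not pass, at 0.29 (edgeR adjusted p = 0.0645), nor with DESeq2, but passed without NC 3 at 0.38, without VCR 3 at 0.34 and with library size alone at 0.68, and was -1.64 against Sertoli genes. Anp32e, a chaperone of H2A.Z, rose by 1.93 with TMM scaling and was -0.04 against Sertoli genes. Slbp, which binds the stem-loop of replication-dependent messages, fell by 0.74. Among factors of histone removal in spermatids, Chd5 fell by 2.87, Cdyl by 2.04, Kat8 by 1.57 and Brdt, the testis bromodomain protein, by 1.44. Rnf8, a ubiquitin ligase that acts on histones, rose by 0.34 (edgeR adjusted p = 0.0241), a call lost with DESeq2 or its size factors, with no filter, with only the groups compared, or without NC 1 or VCR 4, and its value was -1.55 against Sertoli genes. Epc1 gave -0.51 and did not pass in edgeR (adjusted p = 0.0641), but passed with DESeq2 at -0.64, without VCR 3 at -0.73 and against Sertoli genes at -2.34. The transition proteins Tnp1 and Tnp2 fell by 1.86 and 2.19 and the protamines Prm1 and Prm2 by 2.15 each; these 4 are also on the condensing spermatid list, and the call of Tnp1 was lost with only the groups compared (edgeR adjusted p = 0.0595). In Low-VCR against ALL 7 of the 39 fell and 7 rose, beside 51.6% of all genes called, and in High-VCR against ALL 12 fell and 9 rose, beside 72.9%, with Chaf1a at -1.42, Nasp at -1.26 and Slbp at -0.61. The Nasp call there was lost without any one ALL library, High-VCR 1, High-VCR 3 or High-VCR 4. None of the 39 passed in High-VCR against Low-VCR. There 3 of them had an unadjusted p under 0.05 in edgeR's test, beside 4570 of 16534 genes. DNA replication markers fell in 5 of 12 and rose in 5 of 12 cases in VCR against NC, with a median of -0.37.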

How the data were processed

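RNA of 20 mouse testis libraries was analysed from 1 deposited table of raw counts per gene symbol. The submitters' processing notes name DESeq2 1.36.0, Subread 2.0.3, featureCounts, STAR 2.7.10b and Trimmomatic 0.39 and the build GRCm39 (mm39); their roles, the annotation, the strand setting and the counting of multiply mapped or human reads are not given in the sources used here. Counts were tested in R 4.3.3 with edgeR 4.0.16 (limma 3.58.1): filterByExpr (minimum count 10), TMM, a robust quasi-likelihood fit of all 20 libraries (15 residual degrees of freedom), Benjamini-Hochberg over 16534 genes, called under 0.05. SEs are the log2 change over the root of the F statistic. Ratios used a pseudocount of 1 CPM. The fit was tried on simulated counts for VCR against NC alone, with few changed genes and the spread of NC. That setting does not cover the many changed genes and the wider spread of the treated groups.

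Library totals were 9425158 to 16357287 counts. No replicates agreed within counting noise, and the spread differed by group. Chi-square per degree of freedom between 2 libraries of a group was 3.78 to 10.7 in NC and ALL. It was 23.7 to 237 in VCR, 12.2 to 48.0 in Low-VCR and 13.0 to 175 in High-VCR. The fit of all 20 libraries pools these unequal spreads, and so do its SEs and p-values. The members, classes, gene and marker lists were chosen with earlier results of these data known. Named genes were every tested germ cell variant and replacement histone, the 10 tested replication-dependent histones with the highest mean CPM, and members called where 5 or fewer were called. Alternatives were other scalings, no filter, DESeq2 1.42.0, only the groups compared, the replicate number as a block, the library number range as a term, a pseudocount of 0.5 CPM and each library left out. Stem-loop letters came from GENCODE M21 transcripts and promoters from RefSeq GRCm38.p6, a build other than that of the counts.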

Additional observations from a re-analysis of the deposited data

Results flagged for a closer look

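Of 185 groups of 4 libraries checked for a library far from the others, 18 stood out. The rows are not independent, as several are near copies, and the count was not compared with chance or with other genes. High-VCR 3 stood out as the highest for 6 spermatid rows: H1f9 at 242.6 CPM, H2al1m at 26.68, H2al1a at 11.83, H2al1k at 12.88, H2al1e at 12.88 and H2al2b at 1.314. High-VCR 2 stood out for H2az1 at 299.6 CPM. Low-VCR 4 stood out for H2ax at 16.33 CPM and H2aj at 8.349, Low-VCR 1 for H3f4 at 3.036 and H2bc23 at 4.485, and Low-VCR 2 for H2al1a at 16.33. In untreated groups, H2al3 in NC 4 was at 69.63 CPM, H2ab1 in NC 2 at 2.906, H2al1a in NC 3 at 18.13, H2ab3 in ALL 2 at 4.757, H2al1e in ALL 4 at 16.88 and H2ac18 in ALL 1 at 85.63.

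The vincristine change differed between low-infiltration engrafted mice and mice with no named graft by edgeR's interaction test for H1f5 (1.55 on the log2 scale), H4c1 (2.09) and H2bc22 (2.67). All 3 calls were lost when some single libraries were left out, with Sertoli scaling and with the replicate number as a block.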

How the results depend on the processing

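For VCR against NC, leaving out single libraries kept 40 to 41 members lower and 6 to 7 higher. The other ranges were 29 to 39 lower and 7 to 8 higher for High-VCR against ALL, 9 to 14 lower and 5 to 6 higher for Low-VCR against ALL, 0 to 7 lower and 0 to 3 higher for High-VCR against Low-VCR, 16 to 33 higher and 3 to 6 lower for Low-VCR against VCR, and 0 to 22 higher and 0 to 5 lower for the Low-VCR interaction. The share of all genes called ranged from 72.5 to 79.5% in VCR against NC. In the order of the other ranges it was 65 to 77.4%, 43.9 to 48.1%, 0 to 19.4%, 14.8 to 41.9% and 0.0418 to 14%. Of the named calls, 33 of 34 in VCR against NC, 24 of 33 in High-VCR against ALL, 7 of 18 in Low-VCR against ALL and 0 of 5 in High-VCR against Low-VCR were kept with every library left out in turn.

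Sertoli scaling moved the median of all genes from 0.10 to -1.81 in VCR against NC, from 0.08 to -1.57 in Low-VCR against ALL and from 0.16 to -1.73 in High-VCR against ALL, and library size alone moved these to 0.49, 0.33 and 0.45. With Sertoli scaling, 1 member was higher in VCR against NC, 0 in Low-VCR against ALL (59 lower), 1 in High-VCR against ALL, 0 in High-VCR against Low-VCR and 0 in the interaction, and 2 were lower in Low-VCR against VCR. In the same order, the shares of all genes called with it were 82.4%, 79.2%, 80.5%, 4.07%, 0.302% and 14.9%. Positive values turned: in VCR against NC, H2bc23 to -0.17, H2ac25 to -1.31, H1f0 to -0.63, H2aj to -1.48, H2az2 to -1.61, Hira to -0.73, Chaf1b to -1.64, Rnf8 to -1.55 and Anp32e to -0.0408; in Low-VCR against ALL, H2bc23 to -0.68, H2az2 to -1.13, H4c9 to -0.77 and H1f0 to -0.89; in High-VCR against ALL, H2aj to -0.54, H2bc23 to -0.75, H2az2 to -1.43, H4c9 to -0.41 and H1f0 to -0.78. With library size alone, H2az1 in VCR against NC was 0.10, H2bc21 there 0.37, H3c14 in High-VCR against ALL 0.18, H3f3a in Low-VCR against ALL was 0.0082, and 7 members were lower in Low-VCR against ALL, beside 49% of all genes called. The interaction gave 1 member lower with DESeq2 size factors, library size alone or DESeq2, and DESeq2 gave 8 higher. The shares of all genes called in these 3 settings were 4.55%, 3.1% and 11.5%. High-VCR against Low-VCR gave 0 higher with no filter and 2 with DESeq2, beside 5.2% and 13.5% of all genes called.

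Same-numbered libraries correlated above 0.1 in 4 of 28 pairs (range -0.384 to 0.526), so the numbers do not pair the libraries. With the replicate number as a block, 33 members were lower and 6 higher in VCR against NC, where the calls of H3f3b, H2ax, H2al1o, H2al2b, H3c14, H2al1k, Tnp1, Tnp2, Prm1, Prm2 and Rnf8 were not kept (edgeR adjusted p of 0.0527 to 0.105). With that block 36 members were lower in Low-VCR against ALL, 1 lower and 0 higher in High-VCR against Low-VCR, 0 in either direction in Low-VCR against VCR, and 0 higher in the interaction. The share of all genes called with the block was 67.7% in VCR against NC. In the order just given it was 65.6%, 3.29%, 0% and 0.00614%. With only the groups compared and no block, 37 were lower in Low-VCR against ALL and 0 passed in either direction in High-VCR against Low-VCR and in Low-VCR against VCR. All genes called there were 68.3%, 0% and 0.00631%. With the library number range as a term, 34 were lower in Low-VCR against ALL, beside 58.8% of all genes called. With that term 15 were lower and 2 higher in High-VCR against Low-VCR, beside 10.4%. The cause was not tested.

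Without single libraries, values that did not pass ranged from -0.288 to 0.195 for H2bc21 and -0.0894 to 0.665 for H2aj in VCR against NC, and from -0.223 to 0.00499 for H3c14 in High-VCR against ALL. Among ratios with no passing test, H1f7 to H1f6 in High-VCR against Low-VCR was 0.11 with a pseudocount of 0.5 CPM and ranged from -0.27 to 0.21 without single libraries. The same ranges were -0.0415 to 0.0455 for H3f3a to H3f3b in VCR against NC and -0.13 to 0.0076 in High-VCR against Low-VCR, -0.201 to 0.0282 for H2ac1 to H2bc1 in Low-VCR against ALL and -0.23 to 0.0023 in High-VCR against Low-VCR, and -0.24 to 0.22 for H2az2 to H2az1 in High-VCR against Low-VCR. Depth limits H2ab1, H2bw2 and the lowest replication-dependent genes, which lay near the level of 3 counts in the vincristine groups.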
